A study of Homo sapiens with 12 samples.

Results

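The genes described here encode subunits of the 5 oxidative phosphorylation complexes of the mitochondrion. They were chosen by symbol among the protein-coding rows of the deposited table: MT-ND, MT-CO, MT-CYB and MT-ATP genes of the mitochondrial genome, and NDUF, SDH, UQCR, COX and ATP5 genes of the nuclear genome, with the NDUFAF assembly factors left out. Of 100 rows with such a symbol, 95 reached a value of 1 in the deposited unit, TPM (transcripts scaled to 1000000 in each library), in at least 3 of the 12 libraries and are the members, out of 15721 genes that passed the same filter and 30225 in the table. The mitochondrial genome carries 13 members and the nuclear genome 82. Complex I has 44 members (37 nuclear), complex II 4 (all nuclear), complex III 10 (9 nuclear), complex IV 16 (13 nuclear) and complex V, the ATP synthase, 21 (19 nuclear). NDUFA4 was counted with complex IV, where it is now placed. CYC1, the cytochrome c1 subunit of complex III, has a symbol outside this choice and is not among the members.

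All 12 libraries came from PC9, an established line of EGFR-mutant non-small cell lung cancer cells. The cells of every library, controls included, had received gefitinib, which blocks the kinase of EGFR, at 300 nM. There were 4 groups of 3 libraries: a control treated for 24 h, cells with AGR2 knocked down (shAGR2) treated for 24 h, a control treated for 72 h, and cells overexpressing AGR2 (oeAGR2) treated for 72 h. AGR2, in the endoplasmic reticulum, belongs to the protein disulfide isomerases. The labels do not say whether the replicates were separate cultures, which vector each control carried or how many clones were used, so p-values measure the spread between these libraries, which may be technical, and an untreated culture is not among the libraries.

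Oxidative phosphorylation passes electrons from NADH and succinate through complexes I to IV to oxygen and uses the proton gradient this builds to make ATP in complex V. The subunits come from both genomes. The mitochondrial mRNAs are cut from long polycistronic transcripts of both DNA strands, with MT-ND6 alone among the mRNAs on the light strand, while the nuclear mRNAs are made one gene at a time and their proteins are imported. Complex II is the only complex with no subunit from the mitochondrial genome. Oxidative metabolism has been studied in EGFR-mutant lung cancer cells as a trait of cells that persist under EGFR inhibitors.

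Pairs of mitochondrial genes overlap on the heavy strand, and reads in the overlap belong to both genes. Levels are counted per gene, so a difference between the genes of such a pair is not in itself a difference between separate mRNAs. The stretches below are GENCODE 29 transcript sequence (GRCh38), shown because MT-ATP8 and MT-ND4L behave unlike their neighbours in several results. Capitals mark the overlap of MT-ATP8 with MT-ATP6, 46 bases or 22.2% of the 207 bases of MT-ATP8 (chrM:8527-8572), and of MT-ND4L with MT-ND4, 7 bases or 2.36% of 297 (chrM:10760-10766), each with 20 bases on either side.
MT-ATP8: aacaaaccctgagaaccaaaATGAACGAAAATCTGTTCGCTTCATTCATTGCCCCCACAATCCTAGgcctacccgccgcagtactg
MT-ND4L: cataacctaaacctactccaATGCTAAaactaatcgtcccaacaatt

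Promoter sequence (RefSeq, GRCh38.p14) was on hand for 67 of the 82 nuclear members and was searched on both strands for the cores of binding motifs of NRF1 (GCGCATG), ETS factors such as GABP (CCGGAAG) and YY1 (AAGATGG). The ETS and YY1 cores can share bases where they are joined. NRF1 cores were found in 15 of the 67 (22.4%), ETS cores in 21 (31.3%) and YY1 cores in 18 (26.9%), and at least 1 of the 3 in 40 (59.7%). Among the 9108 tested genes with a promoter the shares were 8.86%, 23.5%, 9.63% and 36.2%, and among all 27305 promoters on hand 5.3%, 12.2%, 7.11% and 21.8%. The 220 bases before the RefSeq start are printed for 4 members, with each NRF1 or ETS core in capitals. These 4 were chosen by hand among members with large changes, and all carry a core. ATP5MC1, ATP5MC3, UQCRFS1 and ATP5F1B, also among the largest rises with knockdown, had no core found or no promoter on hand. The NDUFS3 start lies inside the longer span that the deposited table gives this gene. A match is a stretch of letters, and binding was not measured.
SDHB (chr1:17054033-17054252, minus strand): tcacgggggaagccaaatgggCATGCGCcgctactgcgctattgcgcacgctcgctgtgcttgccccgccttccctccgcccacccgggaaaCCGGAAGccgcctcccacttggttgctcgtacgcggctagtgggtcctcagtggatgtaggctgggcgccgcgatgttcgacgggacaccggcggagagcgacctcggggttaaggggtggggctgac
NDUFS3 (chr11:47578854-47579073, plus strand): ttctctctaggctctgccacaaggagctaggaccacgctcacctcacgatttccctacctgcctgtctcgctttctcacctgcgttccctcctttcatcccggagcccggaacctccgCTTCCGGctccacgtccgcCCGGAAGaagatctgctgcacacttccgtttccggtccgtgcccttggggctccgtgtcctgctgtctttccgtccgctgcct
NDUFS6 (chr5:1801187-1801406, plus strand): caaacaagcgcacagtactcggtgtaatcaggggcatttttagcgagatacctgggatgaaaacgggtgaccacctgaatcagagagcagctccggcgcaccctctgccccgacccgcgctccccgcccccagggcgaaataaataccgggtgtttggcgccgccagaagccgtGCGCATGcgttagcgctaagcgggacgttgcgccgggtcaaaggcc
ATP5PD (chr17:75046970-75047189, minus strand): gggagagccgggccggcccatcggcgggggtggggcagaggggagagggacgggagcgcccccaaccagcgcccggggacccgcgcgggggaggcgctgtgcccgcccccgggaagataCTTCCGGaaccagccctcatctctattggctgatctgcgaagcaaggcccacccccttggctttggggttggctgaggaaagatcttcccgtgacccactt

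The deposited TPM values were scaled by each gene's span on the genome, introns included, not by its transcript length. Multiplied by the span, 71.8% to 74.6% of the low values in a library fell within 0.02 of a whole read, against 9.57% to 17.1% with transcript length. The estimated depth was 23237406 to 36708502 reads a library, and this lets each result be given also in CPM, the estimated reads per 1000000 in the library. AGR2 itself followed the labels: TPM was 31.2 to 32.9 in the 24 h controls and 0.592 to 0.769 in the knockdown, and 7.82 to 8.67 in the 72 h controls and 10.7 to 12.1 with overexpression. The first replicates of the 24 h control and of the overexpression stood apart from their groups, with the median log2 level of long transcripts set against short ones at −0.33 and −0.159 (−0.164 to −0.187 and 0.145 to 0.237 in their group's other libraries). On the same measure the knockdown libraries lay at −0.0748 to 0.026 and the 72 h controls at 0.188 to 0.213, all above the 24 h controls. This difference runs along with the knockdown and time comparisons and cannot be told apart from them. Summed TPM of 7 epithelial markers was 5753 to 7333 in the 24 h controls, 2842 to 3080 in the knockdown, 5584 to 5985 in the 72 h controls and 7486 to 9482 with overexpression. The haematopoietic list, nearly all of it CD68, was at 49.5 to 61.3 TPM, 125 to 151, 108 to 109 and 59.0 to 70.0 in the same order of groups. The fibroblast list, all of it COL1A1, was at 3.54 to 4.31, 4.78 to 5.30, 7.70 to 8.56 and 5.98 to 6.03, and the endothelial list was at 0.172 to 1.22 over all libraries. The part of these markers in the results was not tested. In bulk RNA, fewer cells of a kind and less RNA per cell cannot be told apart.

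The span matters for every level. The spans of the members run from 799 to 133294 bases, and over the nuclear members log2 TPM fell along log2 span with r = −0.654, a description across genes that share the 12 libraries. Mitochondrial genes have no introns, and they held 36.2% to 47.4% of TPM but 7.28% to 12.6% of the estimated reads. Levels between genes are therefore given below only as CPM per kilobase of transcript, the mean of the 12 libraries. On that scale the nuclear members had a median of 107 and the mitochondrial members a median of 4470.

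The 13 mitochondrial members spanned 1590 to 14221 on that scale. The core subunits of cytochrome c oxidase led, with MT-CO2 at 14221, MT-CO3 at 13514 and MT-CO1 at 11671. MT-ND4 (7769), MT-ATP6 (6734), MT-ND3 (5380), MT-ND2 (4470), MT-ND1 (4323) and MT-ATP8 (3584) followed. MT-ND4L (2450), MT-ND6 (2130), MT-CYB (2025) and MT-ND5 (1590) were the lowest, so that the only mitochondrial subunit of complex III lay near the bottom of the order. Reads of MT-ND6 cannot be told apart from antisense reads of the heavy strand, since no source used here gives the strandedness of the libraries.

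Among the nuclear members, complex I had a median of 85.9 on the same scale, from 7.33 for NDUFV3, an accessory subunit of the NADH-binding module, to 314 for NDUFC2 of the membrane arm. The 4 subunits of succinate dehydrogenase lay close together, from 82.7 for the membrane anchor SDHD to 160 for the flavoprotein SDHA, with a median of 118. Complex III had a median of 83.5, with UQCRB at 335 and the Rieske iron-sulfur protein UQCRFS1 lowest at 30.2. Complex IV and complex V had medians of 183 and 153. COX4I1, the main form of subunit 4, led complex IV at 458, and the catalytic beta subunit ATP5F1B led complex V at 580.

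**Figure D1:**
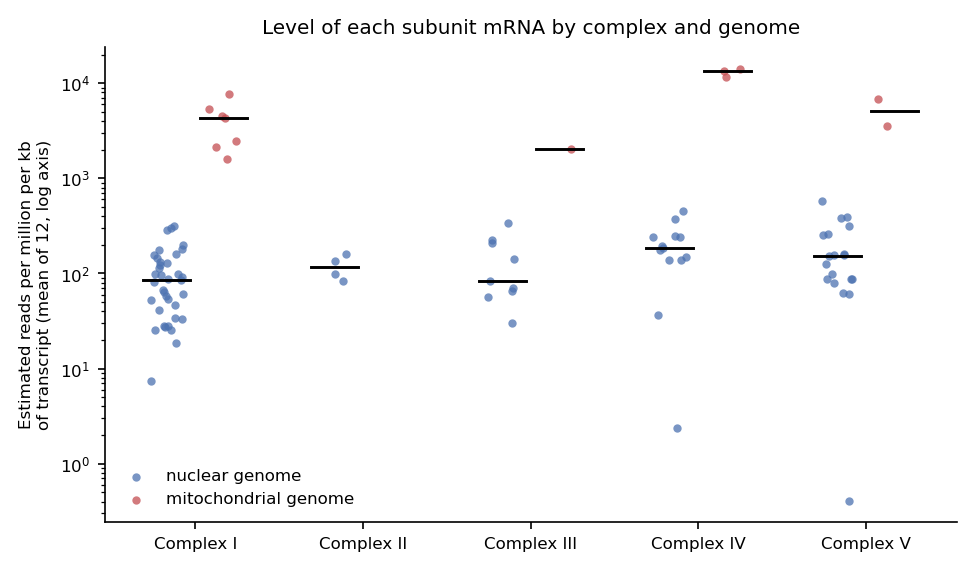
Level of each subunit mRNA, in CPM per kilobase of transcript (log axis, mean of 12 libraries), by complex and genome, with a bar at each median. Mitochondrial members (red, median 4470) lie above nuclear ones (blue, median 107) in each complex that has both, and COX6B2 and ATP5MGL lie far below the other members of complexes IV and V.

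A few members sit at the edge of the filter. NDUFS4, an accessory subunit of complex I, entered at a mean of 1.35 TPM although it had 37.3 CPM, and ATP5MGL, a paralogue of the ATP synthase subunit ATP5MG, entered at 1.73 TPM with 0.326 CPM and as few as 2 estimated reads in a library. COX7B2 stayed just outside at 0.433 TPM with 17.2 CPM over a long span, as did the read-through gene ATP5MF-PTCD1 at 0.406 TPM. NDUFA4L2 (0.365 TPM), NDUFC2-KCTD14 (0.17 TPM) and COX7A1, the muscle form of subunit 7A (0.106 TPM), were also left out. The isoforms COX4I2, COX6A2 and COX8C had no protein-coding row in the deposited table.

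Many members have further copies in the nuclear genome, and reads can be split between them. The table held 71 such copies of 39 members, 11 of them mitochondrial. In TPM 13 copies exceeded their parent, and in estimated reads 0 did. The nuclear copy MTATP6P1 matches MT-ATP6 at 98.5% of 681 bases and held 16.2% as many reads, and NDUFV2P1 matches NDUFV2 at 98.1% and held 56.5% as many. UQCRHL, itself a member on the strength of its protein-coding label, matches UQCRH at 97.9% of 516 bases and held 96.6% as many reads, so values of UQCRH and UQCRHL are uncertain.

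Knockdown of AGR2 at 24 h went with lower mitochondrial subunit mRNAs, and the balance of the genomes shifted. Of 82 nuclear members 50 rose and 0 fell in TPM, where 53.6% and 11.9% of all genes tested did. Mitochondrial members held 8.77%, 9.58% and 9.20% of the estimated reads in the 24 h controls and 5.67%, 6.16% and 5.83% in the knockdown. Nuclear members held 1.07%, 0.920% and 0.911% against 0.958%, 0.996% and 0.985%, and the groups overlapped. Summed TPM of the mitochondrial members divided by that of the nuclear members was 71.2, 94.1 and 88.3 in the 24 h controls and 54.2, 56.6 and 52.7 in the knockdown, a log2 change of −0.624 with no overlap. In reads the ratio was 9.57 ± 1.19 (SD, n = 3) and 6.01 ± 0.157 (SD, n = 3), a log2 change of −0.664. Leaving out any 1 library kept the change between −0.742 and −0.541. The smallest two-sided p that an exact permutation test of 3 libraries against 3 allows is 0.1, so no p is given for the ratio.

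Each of the 4 complexes that mix genomes moved the same way. The log2 change in the ratio was −0.537 for complex I, −0.927 for complex III, −0.539 for complex IV and −0.545 for complex V. In complex III, where MT-CYB faces 9 nuclear members, the ratio was 12.2, 15.5 and 15.6 in the controls and 7.56, 7.66 and 7.43 in the knockdown. The knockdown libraries lay below the controls in all 4 complexes, by TPM and by reads.

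**Figure D2:**
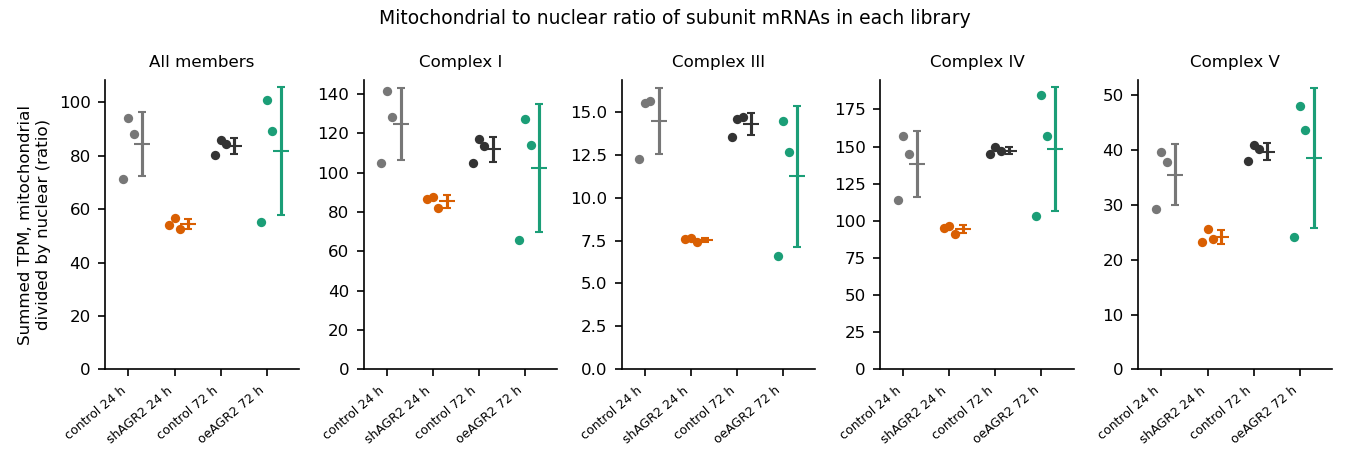
Summed TPM of mitochondrial members divided by summed TPM of nuclear members in each library (points), with mean and SD (n = 3), for all members and for the 4 complexes with subunits from both genomes. The knockdown libraries (orange) lie at 52.7 to 56.6 over all members, below the 24 h controls at 71.2 to 94.1, and the first oeAGR2 library, at 55.1, lies far below the other libraries of its group.

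Among the mitochondrial mRNAs themselves, 0 rose and 5 fell with knockdown in TPM (limma, Benjamini-Hochberg adjusted p below 0.05). Over all genes tested 53.6% rose and 11.9% fell on that scale, and in CPM 36.6% rose and 24.6% fell, where 0 of the 13 rose and 10 fell. MT-ND6, a membrane subunit of complex I, was at 13186, 12593 and 12598 TPM in the controls and 6916, 6890 and 6575 in the knockdown (log2 −0.91, SE 0.052, limma adjusted p = 1.75e-07; −1.29 in CPM). MT-CYB, cytochrome b of complex III, was at 9784, 10798 and 10853 TPM against 7256, 7294 and 7398 (log2 −0.52, SE 0.13, limma adjusted p = 0.00572). In both genes every knockdown library lay below every control.

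The other 3 that fell in TPM were MT-ND1 (log2 −0.47, limma adjusted p = 0.00151), MT-CO2 (−0.47, adjusted p = 0.000137) and MT-CO3 (−0.34, adjusted p = 0.000545). In CPM MT-ND2 (−0.64), MT-ND3 (−0.57), MT-ATP6 (−0.57), MT-CO1 (−0.54) and MT-ND4 (−0.52) also passed, while in TPM their log2 changes were −0.27, −0.19, −0.19, −0.16 and −0.14 and did not. MT-ND5 (−0.039 in TPM), MT-ATP8 (0.32) and MT-ND4L (0.62, adjusted p = 0.144) passed on neither scale. Among the 24 h controls the first replicate held the lowest level of each of these 3, with MT-ND4L at 5241 TPM there against 10568 and 9106 in the other controls. Without the 2 libraries that stood apart, 10 mitochondrial members fell and 1 rose in TPM, where 12.5% of all genes fell and 54.1% rose. The mitochondrial rRNAs, also made from the heavy strand, fell too, with log2 changes in TPM of −0.5 for MT-RNR1 and −0.51 for MT-RNR2. Other settings of the TPM fit gave from 2 falls (no filter on low values) to 10 (libraries divided by their median ratio). In these 2 settings 7.95% and 29.9% of all genes fell. In the same libraries the summed epithelial markers were lower. In TPM 4 of 7 fell, the keratins KRT18, KRT8, KRT19 and KRT7, and EPCAM (log2 0.24) and EGFR (0.64) rose. In CPM 0 of the 7 rose and 5 fell, so the rises in EPCAM and EGFR did not hold there. CD68 rose by 1.27 in TPM and COL1A1 by 0.27 (−0.042 in CPM, which did not pass). The part of these genes in the result was not tested.

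Of the 82 nuclear members, 50 rose and 0 fell with knockdown in TPM, against the 53.6% and 11.9% of all genes. The median log2 change over the nuclear members was 0.368, and over all genes it was 0.351. The TPM scale as a whole moved, and in CPM 19 nuclear members rose and 11 fell, with a median of 0.0369 against 0.087 over all genes. The 19 that rose in CPM had risen in TPM as well. With the 2 libraries that stood apart left out, 68 rose and 0 fell in TPM, and 34 rose and 15 fell in CPM. All genes then had 54.1% higher and 12.5% lower in TPM, and 37.7% and 26.8% in CPM. By complex, 24 of 37 nuclear members of complex I rose in TPM and 9 in CPM, 4 of 4 and 2 of 4 in complex II, 4 of 9 and 3 of 9 in complex III, 6 of 13 and 1 of 13 in complex IV, and 12 of 19 and 4 of 19 in complex V.

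The largest rises were in subunits of complexes II, V, I and III. SDHB, the iron-sulfur subunit of succinate dehydrogenase, was at 6.49, 6.19 and 6.00 TPM in the controls and 13.80, 13.81 and 13.99 in the knockdown (log2 1.04, SE 0.084, limma adjusted p = 1.89e-06; 0.77 in CPM). ATP5MC1, one of 3 genes for the c subunit of the rotor ring, was at 39.9, 33.7 and 36.7 TPM against 75.2, 72.0 and 80.1 (log2 1.02, SE 0.1, adjusted p = 8.69e-06; 0.66 in CPM). The groups did not overlap for either gene on either scale.

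Next came 2 core subunits of the peripheral arm of complex I. NDUFS3 was at 10.8, 9.17 and 9.60 TPM in the controls and 18.7, 19.1 and 19.5 in the knockdown (log2 0.89, SE 0.1, limma adjusted p = 2.41e-05). NDUFS1, its largest iron-sulfur subunit, was at 4.51, 4.87 and 4.95 TPM against 10.3, 9.29 and 9.23 (log2 0.88, SE 0.065, adjusted p = 1.06e-06). Both also rose in CPM, by 0.58 and 0.63. ATP5MC3, another c subunit gene (0.87 in TPM and 0.5 in CPM), UQCRFS1 (0.82 and 0.46), ATP5F1B (0.81 and 0.43) and NDUFS6, a zinc-binding accessory subunit of complex I (0.8 and 0.45), completed the 8 largest rises, and all passed on both scales. Over all nuclear members, 57 had every knockdown library above every control in TPM and 1 below, where 57.3% and 13.6% of all genes did so, and 19 and 19 in CPM, where 39.4% and 27.1% did.

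The nuclear members that fell in CPM were NDUFA3 (−0.79), COX5B (−0.62), UQCRB (−0.52), NDUFC2 (−0.51), ATP5MF (−0.42), UQCRC1 (−0.4), NDUFB10 (−0.39), NDUFB11 (−0.38), ATP5MG (−0.33), NDUFA5 (−0.3) and ATP5F1A (−0.17). They are supernumerary subunits apart from ATP5F1A, the alpha subunit of the catalytic head. In TPM 10 of the 11 did not pass, and ATP5F1A rose (0.2, limma adjusted p = 0.0164), so its direction turns with the scaling. SDHC and COX7A2L rose in TPM (0.29 and 0.26) and had −0.035 and −0.088 in CPM, which did not pass. SDHA (0.61), SDHD (0.44), NDUFV1 (0.43) and the ATP synthase inhibitor ATP5IF1 (0.56) rose in TPM, and of these SDHA also passed in CPM (0.25).

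**Figure D3:**
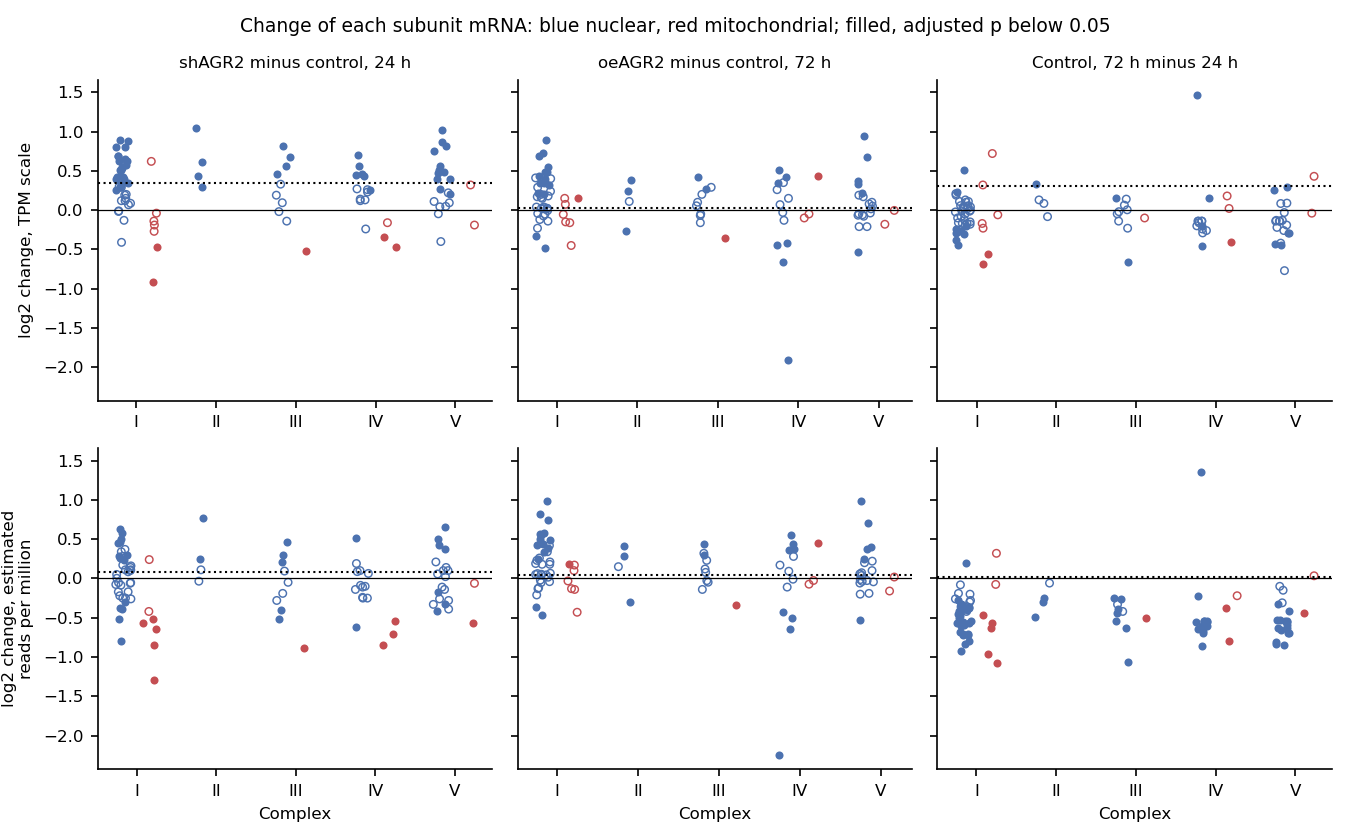
Log2 change of each member by complex in the 3 comparisons, in TPM (top) and in CPM (bottom), with nuclear members in blue and mitochondrial members in red. In the knockdown the mitochondrial members centre on −0.193 (TPM) and −0.571 (CPM) and the nuclear members on 0.368 and 0.0369.

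Genes that serve the complexes were counted in lists chosen with earlier results of these data known. Their counts stand beside 53.6% of all genes higher and 11.9% lower with knockdown in TPM, and 36.6% and 24.6% in CPM. Of 45 tested assembly factors, 33 rose and 3 fell with knockdown in TPM, and 22 rose and 7 fell in CPM. COA7, a haem-binding assembly factor, went from a mean of 5.13 to 17.5 TPM (log2 1.6, limma adjusted p = 1.03e-07), and the copper chaperone COX17 rose by 1.26 and BCS1L, which inserts the Rieske protein, by 1.11. Among 12 electron carrier genes 11 rose (6 in CPM, where 1 fell). Cytochrome c (CYCS) was at 80.7 against 214 TPM (log2 1.39) and cytochrome c1 (CYC1) at 200.1 against 406 (1.02). CYC1 is itself a subunit of complex III, placed in this list because its symbol lies outside the choice of members. The list for upkeep and transcription of mitochondrial DNA had 12 of 13 higher and 0 lower in TPM and 10 higher and 0 lower in CPM. In it TFAM, which packages and transcribes mitochondrial DNA, went from 16.5 to 48.4 TPM (1.5, adjusted p = 3.43e-07; 1.17 in CPM) and the mitochondrial RNA polymerase POLRMT from 5.42 to 11.9 (1.01).

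Read against the same shares of all genes (53.6% higher in TPM, 36.6% in CPM), mitochondrial RNA processing and decay had 16 of 17 higher in TPM and 14 in CPM, with 0 lower on either scale, and HSD17B10, a subunit of mitochondrial RNase P, rose by 1.25. The regulators had 10 of 11 higher (9 higher and 1 lower in CPM), with MYC from 44.4 to 123 TPM (1.45). The tricarboxylic acid cycle and pyruvate list had 19 of 24 higher (16 higher and 4 lower in CPM), led by IDH3A (1.43) and citrate synthase, CS (1.37). Mitochondrial ribosomal proteins had 66 of 76 higher (43 higher and 4 lower in CPM), led by MRPL3 (1.39). The medians of these lists exceeded that of all genes by 0.104 (assembly factors) to 0.427 (regulators) in TPM, while that of the nuclear subunits exceeded it by 0.0177. The 2 mitochondrial rRNAs were the list that fell.

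Overexpression of AGR2 at 72 h moved single nuclear members up or down and left the balance of the genomes over all members within the spread of the libraries. The mitochondrial to nuclear ratio was 80.4, 86.0 and 84.5 in the 72 h controls and 55.1, 101 and 89.3 with overexpression, where the first library stood apart (log2 change −0.0775, from −0.253 to 0.185 when 1 library was left out). For complex III the ratio in reads was 2.68, 2.89 and 2.92 in the controls and 1.27, 2.62 and 2.34 with overexpression, with no overlap. Its log2 change of −0.514 (pooled SD of the log2 ratio 0.298) leaned on the first overexpression library. The second, at 2.62, lay just under the lowest control at 2.68. In TPM the complex III ratio changed by −0.419 and the groups overlapped, as they did on both scales in complexes I, IV and V. Of 82 nuclear members 25 rose and 8 fell in TPM, against 29.9% and 25.5% of all genes tested. In CPM 27 rose and 8 fell, against 31.6% and 25.5%, and the 25 and the 8 were among them. Without the 2 libraries that stood apart 23 rose and 20 fell in TPM, and 28 rose and 26 fell in CPM. All genes then had 32.7% higher and 27% lower in TPM, and 34.4% and 28.8% in CPM. Leaving out the first overexpression library alone gave 16 falls in TPM, against 25.5% of all genes. Leaving out the third 72 h control alone gave 16 rises, against 26.4% of all genes.

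The largest rise was in ATP5PD, subunit d of the ATP synthase's peripheral stalk, at 33.1, 30.8 and 29.7 TPM in the controls and 76.2, 52.0 and 56.8 with overexpression (log2 0.94, SE 0.12, limma adjusted p = 0.000106). NDUFS3 was at 8.02, 7.69 and 8.38 TPM against 19.0, 14.02 and 14.4 (log2 0.89, SE 0.1, adjusted p = 4.07e-05). For both genes the first overexpression library was the highest, and the groups did not overlap. In NDUFA5, an accessory subunit of the peripheral arm of complex I, the 3 overexpression libraries lay close together, with 6.93, 6.27 and 6.62 TPM against 11.3, 12.0 and 11.5 (log2 0.73, SE 0.073, adjusted p = 1.51e-05).

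The next rises were in NDUFB5 (0.69), ATP5PO, the OSCP subunit of the stalk (0.67), NDUFB4 (0.55), COX6C (0.51) and NDUFB1 (0.49), and all passed on both scales. Complex I had 13 of 37 nuclear members higher and 2 lower, complex II 2 and 1 of 4, complex III 2 and 0 of 9, complex IV 3 and 4 of 13, and complex V 5 and 1 of 19. Among the 20 falls found without the 2 libraries that stood apart were 5 in complex I, 1 in II, 3 in III, 5 in IV and 6 in V. The shares of all genes were 29.9% higher and 25.5% lower. The libraries did not overlap in 31 nuclear members that were higher and 8 that were lower, in TPM and in CPM alike, where 33.2% and 29.9% of all genes did so in TPM and 34.8% and 28.9% in CPM.

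COX6B2, the isoform of subunit 6B known from testis, had the largest change of any member. It was at 6.49, 7.07 and 7.01 TPM in the 72 h controls and 0.915, 1.18 and 1.16 with overexpression (log2 −1.91, SE 0.068, limma adjusted p = 1.44e-08; −2.24 in CPM). COX8A, a small subunit on the outside of the complex IV core, was at 155.3, 155.4 and 155.0 TPM against 111.7, 87.3 and 96.1 (log2 −0.66, SE 0.11, adjusted p = 0.000606). The first overexpression library was the nearest to the controls for COX8A and the farthest for COX6B2. The other falls were in ATP5MG (−0.53), NDUFC2 (−0.48), COX7A2L, which helps to join complexes III and IV (−0.45), COX5A (−0.42), NDUFS1 (−0.33) and SDHC (−0.27).

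Of the 13 mitochondrial members 2 rose and 1 fell with overexpression in TPM, against 29.9% and 25.5% of all genes. The same counts were found in CPM. None of these 3 passed in TPM when the 6 libraries were compared alone, with no filter on low values, or scaled to nuclear protein-coding genes, where the counts were 0 and 0. MT-CO1, the catalytic subunit of cytochrome c oxidase, was at 50464, 51959 and 51969 TPM in the controls and 55211, 80358 and 75356 with overexpression (log2 0.43, SE 0.13, limma adjusted p = 0.0158). MT-ND6 rose by 0.16 (adjusted p = 0.0211; −0.033 by quantile normalisation), and MT-CYB fell by 0.36 on the log2 scale (adjusted p = 0.0388) with 5865, 8933 and 8410 TPM against 9432, 9987 and 9969. Without the 2 libraries that stood apart 5 rose and 1 fell in TPM, against 32.7% and 27% of all genes. Without the third overexpression library 0 rose, against 26.9% of all genes. MT-RNR1 rose by 0.46. In the same comparison 3 of the 7 epithelial markers rose (KRT19, KRT18 and KRT8) and 2 fell (EPCAM and EGFR), CD68 fell by 0.72 on the log2 scale and COL1A1 fell by 0.39, and their part in these results was not tested.

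With overexpression the serving lists are read against 29.9% of all genes higher and 25.5% lower in TPM. Assembly factors had 12 higher and 6 lower of 45, electron carriers 7 and 2 of 12, the mitochondrial DNA list 6 and 2 of 13, RNA processing 5 and 7 of 17, regulators 3 and 4 of 11, the tricarboxylic acid cycle list 5 and 10 of 24, ribosomal proteins 32 and 8 of 76 and the rRNAs 1 and 0 of 2. PET100, which helps to assemble complex IV, went from 18.3 to 40.7 TPM (log2 1.06, limma adjusted p = 0.00143). The isocitrate dehydrogenase IDH2 went from 20.8 to 6.00 TPM (−1.64, adjusted p = 6.38e-08), and citrate synthase, CS, from 23.6 to 13.9 (−0.73). TRMT10C of the mitochondrial RNase P rose by 0.8 and MRPL47 by 1.27, while MRPS24 fell by 0.9 on the log2 scale.

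Between the 2 controls, from 24 h to 72 h of gefitinib, the nuclear members lagged behind the rest of the genes. In TPM 8 of 82 rose and 15 fell, against 52.9% and 8.1% of all genes tested, and in CPM 2 rose and 64 fell, against 30.8% and 24.2%. The median log2 change was −0.129 in TPM and −0.535 in CPM, with all genes at 0.302 and 0.0226. In CPM 26 of 37 nuclear members of complex I fell, 3 of 4 of complex II, 7 of 9 of complex III, 12 of 13 of complex IV and 16 of 19 of complex V. The mitochondrial mRNAs had 0 higher and 3 lower in TPM, and 0 and 9 in CPM, and the ratio of the genomes differed by less than the spread of the libraries (log2 −0.00602). These controls also enter the knockdown and overexpression comparisons, so the results are set side by side only. In 11 nuclear members every 72 h control lay above every 24 h control in TPM and in 28 below (58.4% and 10.8% of all genes), and in 2 and 75 in CPM (35.1% and 29.1%). Without the 2 libraries that stood apart, 19 nuclear members rose and 15 fell in TPM and 2 rose and 68 fell in CPM. All genes then had 53.5% higher and 8.37% lower in TPM, and 31.6% and 26.5% in CPM. With the trend along gene length and GC content removed, 16 rose and 4 fell in TPM (55.5% and 7.7% of all genes), so the balance of rises and falls turned, while in CPM 1 rose and 53 fell. In the same libraries CD68 (log2 0.98) and COL1A1 (0.88) rose. Of 7 epithelial markers 2 rose and 1 fell in TPM, and 2 rose and 4 fell in CPM. The part of these markers in the result was not tested.

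UQCRB, a small subunit of complex III that binds ubiquinone near cytochrome b, had the largest of these falls that met the naming rule. It was at 91.2, 92.2 and 80.6 TPM at 24 h and 57.1, 56.4 and 52.7 at 72 h (log2 −0.66, SE 0.12, limma adjusted p = 0.00093; −1.06 in CPM). COX7B (−0.46), NDUFB10 (−0.45), ATP5PD (−0.45), ATP5F1C, the gamma shaft of the ATP synthase (−0.43), NDUFB1 (−0.38), ATP5IF1 (−0.29) and NDUFA5 (−0.29) followed, and each fell in CPM too. COX6B2 went the other way, at 1.81, 1.72 and 2.00 TPM at 24 h and 6.49, 7.07 and 7.01 at 72 h (log2 1.47, SE 0.068, limma adjusted p = 2.84e-07; 1.35 in CPM). NDUFS1 rose by 0.51 (0.2 in CPM, adjusted p = 0.0183). SDHA (0.33), ATP5F1B (0.3), ATP5F1A (0.25), COX7A2L (0.16) and UQCRC2 (0.15) rose in TPM and were below 0 in CPM, with COX7A2L and UQCRC2 passing as falls there.

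Of the mitochondrial mRNAs, MT-ND6 (log2 −0.68, limma adjusted p = 3.26e-06), MT-ND3 (−0.56, adjusted p = 0.000517) and MT-CO2 (−0.4, adjusted p = 0.000573) fell from 24 h to 72 h on both scales. MT-CO1 had 0.18 in TPM and −0.22 in CPM, and passed on neither. Over all genes 52.9% were higher and 8.1% lower in TPM, and 30.8% and 24.2% in CPM. Among the lists, mitochondrial ribosomal proteins had 13 higher and 20 lower of 76 in TPM and 0 and 57 in CPM, and regulators had 9 higher and 0 lower of 11 in TPM and 7 and 1 in CPM. Assembly factors had 17 and 4 of 45 (2 and 17 in CPM), electron carriers 3 and 1 of 12 (0 and 8), the mitochondrial DNA list 6 and 1 of 13 (4 and 5), RNA processing 13 and 0 of 17 (5 and 2), the tricarboxylic acid cycle list 14 and 1 of 24 (6 and 7) and the rRNAs 0 and 1 of 2 (0 and 2).

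The make-up of the mitochondrial pool also differed between groups. MT-CO1 took 11.3% to 12.6% of summed mitochondrial mRNA TPM in the 24 h controls, 12.5% to 13.3% in the knockdown, 14.5% to 14.8% in the 72 h controls and 18.2% to 20.4% with overexpression. The ratio of MT-CO1 to MT-CO2, which lie next to each other on the heavy strand, was 0.546 to 0.638, 0.699 to 0.803, 0.879 to 0.887 and 1.04 to 1.37 in the same order, with no overlap between any pair of groups. MT-ND6 took 3.22% to 3.69% in the 24 h controls and 2.11% to 2.22% in the knockdown. MT-CYB took 2.74% to 2.83% and 2.76% to 2.80% in the controls and less in both engineered groups, 2.27% to 2.37% with knockdown and 1.94% to 2.26% with overexpression. Ratios within a library do not move with the scaling of that library. They can move with the balance of long and short transcripts, which differed between groups, and MT-CO1 is longer than MT-CO2. The part of that balance in these ratios was not tested.

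MT-ND4L and MT-ATP8, set against their neighbours, were low in the libraries that stood apart. MT-ND4L to MT-ND4 was 0.154 in the first 24 h control and 0.257 and 0.226 in the other two, and 0.242, 0.378 and 0.380 with overexpression. MT-ATP8 to MT-ATP6 was 0.343, 0.511 and 0.441, and 0.400, 0.621 and 0.580 in the same groups. In both groups the first replicate was the lowest, and the ratios in the other groups lay at 0.336 to 0.432 for MT-ND4L and 0.568 to 0.622 for MT-ATP8. The share of MT-ND3 in summed mitochondrial mRNA TPM went the other way. It was 8.87% in the first 24 h control and 7.02% and 6.92% in the other controls, and 7.46%, 4.68% and 5.34% with overexpression.

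**Figure D4:**
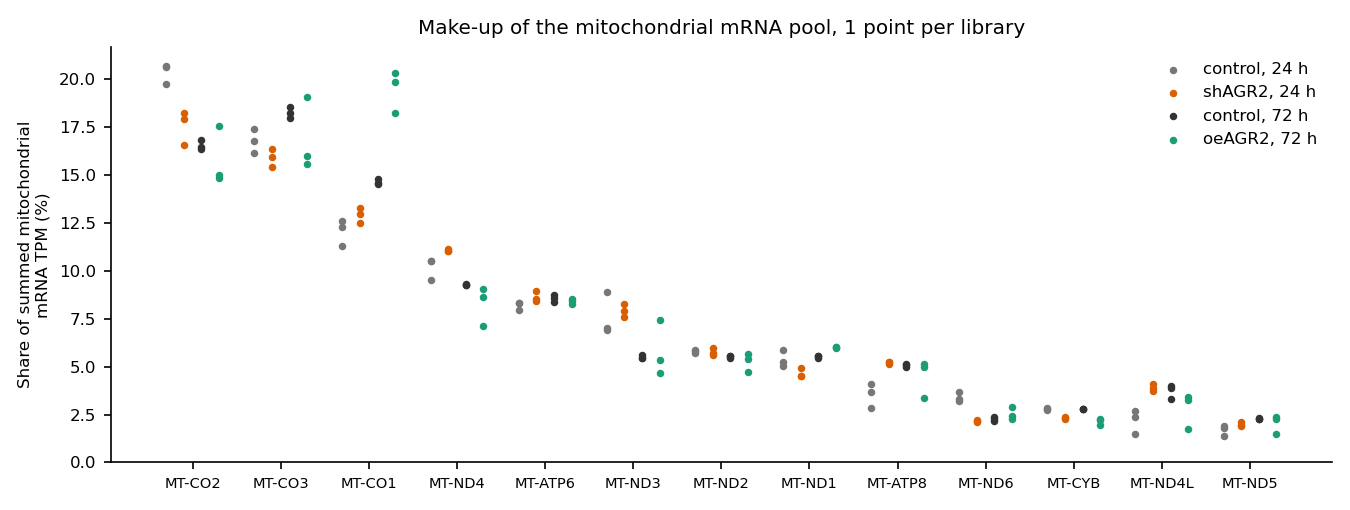
Share of each of the 13 mitochondrial members in the summed mitochondrial mRNA TPM (%), 1 point per library. MT-CO1 holds 18.2% to 20.4% in the oeAGR2 libraries and at most 14.8% in the others, and MT-CO2 holds the most, up to 20.7%, in the 24 h controls.

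Isoform pairs gave ratios of the same kind. COX6B2 to COX6B1, the widespread form, was 0.021 to 0.0277 in the 24 h controls, 0.0411 to 0.0474 in the knockdown, 0.111 to 0.113 in the 72 h controls and 0.00895 to 0.0188 with overexpression. COX6B1 itself passed in none of the 3 comparisons in TPM, with log2 changes of 0.12, 0.35 and −0.29. ATP5MC1 to ATP5MC2 was 2.92 to 3.19, 5.61 to 5.90, 3.09 to 3.41 and 2.30 to 2.60 in the same order of groups, and ATP5MC2 had log2 changes of 0.11, 0.17 and −0.13, none of which passed. The 3 ATP5MC genes encode the same mature protein behind different import sequences. COX8A to COX7C was 0.721 to 0.734 in the 72 h controls and 0.409 to 0.462 with overexpression.

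Whether the knockdown and the overexpression effects differed was tested for each gene as the overexpression effect minus the knockdown effect. Of the 95 members 9 were higher and 34 lower in TPM, against 20.1% and 45.6% of all genes tested, and 30 and 14 in CPM, against 30.8% and 34.1%. AGR2 dose and time of treatment differ together between these comparisons and cannot be told apart. The difference was largest for COX6B2 (log2 −2.62, limma adjusted p = 9.08e-09), which rose with knockdown (0.7, from 1.72 to 2.00 TPM in the controls to 3.42 to 3.79) and fell with overexpression. It was −1.23 for ATP5MC1, −1.21 for NDUFS1, −1.12 for COX8A and −0.8 for SDHB, and 1.08 for MT-ND6 (adjusted p = 5.5e-07), 0.62 for MT-ND1 and 0.59 for MT-CO1, and these passed on both scales. Without the 2 libraries that stood apart 14 members were higher and 56 lower in TPM, against 21.8% and 46.2% of all genes.

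NDUFS3 rose by 0.89 in both comparisons (difference −0.0064, SE 0.14, limma adjusted p = 0.973), while in CPM the difference was 0.4 (adjusted p = 0.0427). In TPM 18 nuclear members rose in both, and 6 rose with knockdown and fell with overexpression, namely NDUFS1, SDHC, COX5A, COX6B2, COX7A2L and COX8A. In CPM NDUFS1 and COX6B2 rose with knockdown and fell with overexpression. How many of all genes fell in these joint classes was not counted, so the counts cannot be read as particular to the members. Of all genes 53.6% rose with knockdown in TPM, and 29.9% rose and 25.5% fell with overexpression. Across the 82 nuclear members the log2 changes in TPM of the comparisons had r = −0.111, a description over genes in libraries with no control in common.

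The changes can be set beside the promoter motifs. With knockdown the median log2 change in TPM was 0.34 over the 40 nuclear members with at least 1 of the 3 cores and 0.4 over the 27 without. With overexpression it was 0.185 and 0.039, and with time −0.14 and −0.12. The 15 members with an NRF1 core, among them SDHB and NDUFS6, had a median of 0.4 with knockdown and 0.26 with overexpression. Members without it had 0.37 and 0.0895. In CPM the NRF1 medians were 0.057 and 0.29, against 0.037 and 0.11. The 21 with an ETS core had 0.29 and 0.18 in TPM, against 0.4 and 0.165, and −0.086 and 0.21 in CPM, against 0.0745 and 0.185. The 18 with a YY1 core had 0.375 and 0.165 in TPM, against 0.39 and 0.17, and 0.0785 and 0.185 in CPM, against 0.023 and 0.2.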

How the data were processed

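RNA of PC9 cells was sequenced in 12 libraries of 4 groups. The authors deposited 1 table of TPM per gene; reads were aligned with STAR 2.7.8a to hg38 (GRCh38), per the submitters' processing notes, and no source used here names the quantifier, annotation or strand setting. Genes with at least 1 TPM in 3 libraries were fitted with limma 3.58.1 (R 4.3.3) as log2(TPM + 1), with 4 group means over 12 libraries, an intensity trend and 8 residual degrees of freedom, and p-values were adjusted by Benjamini-Hochberg over the 15721 genes. Fold changes on this scale understate those of low genes. Since the deposited TPM times gene span gave nearly whole reads, the same fit was run on log2(CPM + 0.5), chosen after seeing the data. The fit was also run on simulated data with independent noise per gene and no shift of whole libraries. That run cannot show how the shifts seen here affect the calls. Members and lists were chosen with earlier results of these data known. Named were the mitochondrial members, up to 8 nuclear members with the largest rises and falls per comparison that passed, did not overlap and reached 5 TPM, isoforms, core subunits, extremes of level and leading list genes; not every one is printed. Python 3.11.15 with pandas 2.3.3, numpy 2.4.6, biopython 1.88 and matplotlib 3.10.9 did the rest. Depth was 23237406 to 36708502 estimated reads, a median of 2261 per nuclear member and library. Alternatives covered pseudocount, filter, scaling, copies, length and GC content, replicate block and left-out libraries.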

Additional observations from a re-analysis of the deposited data

How the results depend on the processing

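Counts below are of members, higher then lower. CPM, alone or combined with another setting, were added after seeing the data, and the cause of each change was not tested. Libraries divided by their median ratio gave 10 and 18 nuclear members with knockdown, 15 higher with overexpression and 2 and 62 with time. Mitochondrial members gave 10 lower, 1 higher and 9 lower in the same order, and the difference of effects gave 29 and 8. The shares of all genes, higher then lower, moved with the setting. Here they were 29.4% and 29.9% with knockdown, 27.8% and 28.6% with overexpression and 27.9% and 26.3% with time. For the difference they were 32.2% and 31.7%. Scaling to nuclear protein-coding genes gave 33 and 7 nuclear members with knockdown and 2 and 55 with time. Mitochondrial counts were 8 lower with knockdown, 0 and 0 with overexpression and 5 lower with time, and the difference had 21 and 22. All genes had 39.3% and 18.6% with knockdown, 27% and 24.7% with overexpression, 32.6% and 16.9% with time and 24.3% and 36.9% for the difference. Quantile normalisation gave 20 and 14, and 3 and 57, for nuclear members with knockdown and time. Mitochondrial ones had 3 lower with knockdown, 1 and 3 with overexpression and 1 higher with time, and the difference had 21 and 18. All genes had 31.6% and 28% with knockdown, 26.5% and 31.9% with overexpression, 29.9% and 24.5% with time and 29.9% and 35.2% for the difference. Without a filter, mitochondrial members had 2 lower with knockdown, 0 and 0 with overexpression and 1 lower with time, and the difference had 5 higher. Of all 30225 genes 7.95% were lower with knockdown, 23.6% and 18.3% passed with overexpression, and 4.83% were lower with time. For the difference 15.8% were higher. With the length and GC trend removed, 9 mitochondrial members were lower with knockdown, 0 lower with overexpression and 3 higher with time. Nuclear members had 16 and 4 with time. Of all genes 12.2% were lower with knockdown and 28% lower with overexpression, and with time the shares were 55.5% and 7.7%. With the 6 libraries of a comparison alone, overexpression had 16 nuclear members higher and 0 and 0 mitochondrial ones, against 27.6% and 23.6% of all genes. The difference of effects needs all 4 groups and was not run so.

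In CPM nuclear members had 19 and 11 with knockdown and 2 and 64 with time. Mitochondrial members had 10 lower and 9 lower, and the difference 30 and 14. All genes had 36.6% and 24.6% with knockdown, 30.8% and 24.2% with time and 30.8% and 34.1% for the difference. Rescaled by median ratio the member counts were 11 and 23, 1 and 67, 11 lower and 9 lower, and 34 and 10. With overexpression 1 mitochondrial member was higher. All genes had 30.2% and 30.8% with knockdown, 28.8% and 27.3% with time and 32.9% and 32.1% for the difference, and 28.3% were higher with overexpression. With copies summed the member counts were 19 and 11, 2 and 64, 10 lower and 9 lower, and 31 and 14. The shares of all genes were 36.6% and 24.6%, 30.8% and 24.2%, and 30.8% and 34.1%. With the trend removed the member counts were 23 and 14, 1 and 53, 11 lower and 8 lower, and 35 and 16. The shares of all genes were 38.8% and 26.5%, 32.5% and 26.1%, and 32.4% and 36.1%. Without the 2 libraries that stood apart, CPM gave 15 nuclear members lower with knockdown, 26 lower with overexpression and 2 and 68 with time. It gave 12 mitochondrial members lower, 4 higher and 11 lower in the same order, and 28 higher for the difference. All genes had 37.7% and 26.8% with knockdown, 34.4% and 28.8% with overexpression, 31.6% and 26.5% with time and 32.7% and 35.1% for the difference. In TPM without these 2 libraries, nuclear members had 20 lower with overexpression and 19 higher with time. Mitochondrial ones had 1 and 10 with knockdown, 5 higher with overexpression and 3 and 6 with time, and the difference 14 and 56. All genes had 54.1% and 12.5% with knockdown, 32.7% and 27% with overexpression, 53.5% and 8.37% with time and 21.8% and 46.2% for the difference.

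Leaving out each library in turn gave nuclear counts of 43 to 51 higher and 0 to 1 lower with knockdown, 16 to 32 and 8 to 16 with overexpression, and 6 to 7 and 9 to 14 with time. Mitochondrial counts were 0 to 0 and 5 to 5, 0 to 3 and 0 to 1, and 0 to 0 and 3 to 3. The difference had 7 to 14 and 30 to 43, and the log2 ratio of the genomes ran from −0.742 to −0.541 with knockdown, −0.253 to 0.185 with overexpression and −0.125 to 0.0762 with time. Same-numbered libraries did not deviate together (correlations from −0.159 to 0.062). A replicate block gave 50 and 0 nuclear and 0 and 6 mitochondrial members with knockdown, and 27 and 8, and 2 and 1, with overexpression. It gave 8 and 17, and 1 and 3, with time, and 11 and 36 for the difference. All genes had 53.9% and 12.1% with knockdown, 30.3% and 25.8% with overexpression, 53.1% and 8.36% with time and 20.5% and 45.7% for the difference.

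Single members turned direction in 72 combinations of member and setting, and 167 lost their call. With knockdown the settings that turned a member were, in the order median ratio, protein-coding scaling, quantile, CPM, the same by median ratio, with copies summed, with the trend removed and without the 2 libraries: ATP5F1A −0.3, −0.04, −0.14, −0.17, −0.3, −0.17, −0.23 and −0.18. By median ratio and CPM by median ratio, COX5A gave −0.037 and −0.038, COX8A −0.046 and −0.046, NDUFV1 −0.083 and −0.083, SDHD −0.026 and −0.027, UQCRH −0.039 and −0.04 and COX7B −0.07 and −0.07 (−0.018 with the trend removed). COX7A2L gave −0.2, −0.17 by quantile, then −0.088, −0.22, −0.088, −0.18 and −0.062 in the settings from CPM on. SDHC gave −0.15, −0.13, −0.035, −0.17 and −0.02 up to copies summed. NDUFA4 gave −0.057 with the trend removed, and MT-CO3 gave 0.038 by quantile. With overexpression MT-ND6 gave −0.033 by quantile. With time, in the first order, ATP5F1A gave −0.19, −0.018, −0.053, −0.15, −0.19, −0.15, −0.021 and −0.15, COX7A2L −0.24, −0.081, −0.22, −0.22, −0.26, −0.22, −0.06 and −0.19, and UQCRC2 −0.28, −0.11, −0.21, −0.25, −0.29, −0.25, −0.022 and −0.27. SDHA gave −0.1, −0.024, −0.059, −0.11, −0.064, −0.14 and −0.042 without the second setting, and ATP5F1B −0.14, −0.1, −0.14, −0.1 and −0.11 by the CPM and median-ratio settings.

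Depth does not limit the abundant members, but 2 had under 100 estimated reads in a library. A single library moved some counts by over 1.5 times: without the second overexpression library the difference had 14 higher, without the first 24 h control 9 nuclear members fell with time, and mitochondrial counts with overexpression moved by 1 or 2 with most libraries. With 3 libraries a group no exact test of a single value can pass 0.05, and the TPM scale, divided by gene span, gives mitochondrial genes and intronless copies more weight than reads do.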
